A study of Mus musculus with 4 samples.

Results

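The replication-dependent histone genes encode the linker histone H1 and the core histones H2A, H2B, H3 and H4 that package newly copied DNA. They were chosen by gene symbol, as H1f1 to H1f5 and the numbered H2ac, H2bc, H3c and H4c genes. The rule found 53 genes, each with 1 row, among 19504 genes with a symbol. They comprise 4 H1, 13 H2A, 15 H2B, 10 H3 and 11 H4 genes. In a RefSeq gene table (GRCm38.p6) 64 symbols match the rule, and those without a row were not analysed here.

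Expression was measured by Affymetrix array in mouse group 3 innate lymphoid cells (ILC3s), which are lymphocytes of barrier tissues, sorted as Lin-, CD90 high and CD45 low. There was 1 array each of circZbtb20-/- cells, which lack a circular RNA of the Zbtb20 gene, circZbtb20+/+ cells, Nr4a1-/- cells, which lack an orphan nuclear receptor, and Nr4a1+/+ cells. The labels used here do not give the tissue, the age, how the alleles were made, or whether animals were pooled. With 1 array for each genotype no value below has a replicate error, and precision is limited by there being 4 arrays.

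Core histones form the octamer around which DNA is wound, and H1 binds the DNA between octamers. Most genes of this family lie in clusters, are short and have many near-identical copies. Their transcripts are made mainly in S phase, when DNA is copied, and most end in a stem-loop, bound by the protein SLBP, where other mRNAs have a poly(A) tail. A few members, H1f2 and H2bc4 among them, are known to be transcribed also in cells that do not divide, with poly(A) tails.

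Values are the deposited values, whose log2 scale is read from the numbers themselves, so the size of large differences is uncertain; a difference is the log2 difference of 2 arrays, knockout minus the wild type its title pairs with it. A gene is called higher or lower when the difference was at least 1, that is 2-fold, and the higher value reached the median of all rows of its array. These medians lay between 4.34 and 4.51 and the 95th percentiles between 11.38 and 11.89. No histone gene reached the ceiling of the table, 19.93. The probes of near-identical histone copies may bind each other's transcripts, so the genes are not separate measurements. H3c13, H3c14 and H3c15 had the same value on every array, which left 51 distinct sets of values. Levels of different genes rest on different probes, so no histone gene's level was set against another's, and a count of genes past a percentile of the array only describes that array.

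The marker genes of the sorted cells were read first. Of 14 ILC3 markers measured, 12 were lower and 1 higher on the array labelled Nr4a1 knockout than on its wild type, with medians of 5.51 and 15.20. Kit, the stem cell factor receptor of ILC3s, was at 5.48 there against 18.07 to 19.67 on the other arrays. Among 19 T cell and thymocyte markers, 18 were higher on that array and 0 were lower (medians 14.64 and 5.93). Over the 11197 genes that met the median rule, 31.9% were called higher and 20.8% lower on that array. Dntt, the terminal transferase of developing lymphocytes, was at 14.64 there and at 2.40 to 2.82 on the others. The marker genes therefore go against the label of this array. Every Nr4a1 comparison below rests on it, and none remains without it. The circZbtb20 comparison and the wild types do not use it. For 12 pancreatic acinar markers the median was 10.23 in circZbtb20+/+ cells, 4.36 in circZbtb20-/- cells and 7.50 in Nr4a1+/+ cells. In the circZbtb20 comparison 11 of the 12 were lower, beside 19.4% of all genes that met the median rule.

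The upstream sequences of 4 genes are shown, each for a reason of its own, chosen after the values were seen. H1f2 and H1f1 had opposite differences in both knockout comparisons. H2ac6 lies next to H2bc4, and the sequence is from the gap between them. H2bc7 is an example of the H2B genes that were higher on the array labelled Nr4a1 knockout. Each run holds the 200 bases before the annotated start, 5′ to 3′ in the direction of the gene, from RefSeq (GRCm38.p6). Capitals mark matches on either strand to the CCAAT box (CCAAT), the TATA box (TATAAA), the octamer element known from H2B promoters (ATTTGCAT) or the H1 box (AAACACA).
H1f2 (chr13:23738607-23738806, plus strand): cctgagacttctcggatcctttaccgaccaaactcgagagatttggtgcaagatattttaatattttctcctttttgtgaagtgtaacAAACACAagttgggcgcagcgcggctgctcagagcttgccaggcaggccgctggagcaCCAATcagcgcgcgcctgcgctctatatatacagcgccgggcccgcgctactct
H1f1 (chr13:23763468-23763667, plus strand): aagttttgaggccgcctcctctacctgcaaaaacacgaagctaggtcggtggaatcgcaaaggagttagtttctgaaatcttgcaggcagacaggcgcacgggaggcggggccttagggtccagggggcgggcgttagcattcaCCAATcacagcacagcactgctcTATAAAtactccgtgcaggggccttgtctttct
H2ac6 (chr13:23683960-23684159, minus strand): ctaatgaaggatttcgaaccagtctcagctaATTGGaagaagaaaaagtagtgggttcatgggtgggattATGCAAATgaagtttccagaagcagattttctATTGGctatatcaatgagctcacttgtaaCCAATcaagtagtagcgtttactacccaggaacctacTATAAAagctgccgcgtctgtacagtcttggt
H2bc7 (chr13:23574208-23574407, minus strand): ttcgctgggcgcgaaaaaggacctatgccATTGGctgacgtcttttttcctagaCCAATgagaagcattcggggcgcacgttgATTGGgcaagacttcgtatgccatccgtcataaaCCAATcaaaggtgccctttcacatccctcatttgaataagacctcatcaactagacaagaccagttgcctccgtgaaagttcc

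A window from 250 bases before to 50 bases after the start was held for 48 of the 53 genes. CCAAT was in 41 of 48 windows (85.4%), against 37.4% of all 32851 windows of that table. It was in every window of an H1, H2A, H2B or H3 gene and in 3 of 10 windows of H4 genes. TATAAA was in 28 of 48 windows (58.3%), against 13.6% of all. The octamer element was in 12 windows (25.0%), 6 of H2A and 6 of H2B genes, against 1.74% of all. The H1 box was in 7 windows (14.6%), against 7.18% of all. These were 3 windows of H1 genes (H1f2, H1f3 and H1f5), 2 of H2A and 2 of H2B genes. The letters were searched on both strands, and none of these motifs contains another. In 7 neighbouring pairs of an H2A and an H2B gene the windows overlap, by 220 to 279 bases, so they share motifs. A match describes the sequence and not a bound site.

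On the array labelled Nr4a1 knockout, histone genes of every type were higher than in the paired wild type. Of the 53 genes 48 were higher and 2 lower, with a median difference of 4.94. Over all 11197 genes that passed the filter on low values, 31.9% were called higher and 20.8% lower (median 0.29, and 0 over all 19504 genes). All 53 histone genes passed this filter, some only through the array on which they were high. At or above the 95th percentile of the array stood 37 of the 53 here, 14 in Nr4a1+/+ cells, 6 in circZbtb20-/- cells and 9 in circZbtb20+/+ cells. In bulk cells a larger share of dividing cells and more histone RNA per cell cannot be told apart. The same array held the T cell and thymocyte markers described above, and their part in these differences was not tested.

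**Figure D1:**
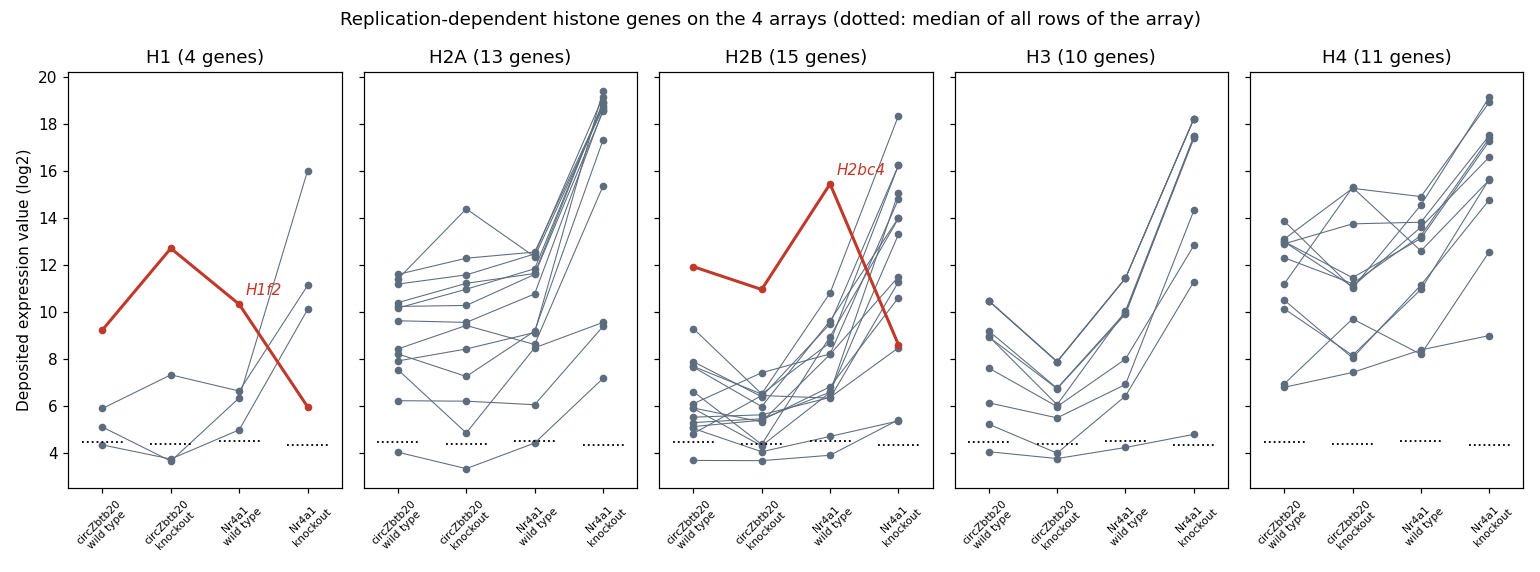
Deposited log2 values (vertical axis) of each histone gene on the 4 arrays (horizontal axis), 1 panel for each histone type, 1 line for each gene, with dotted bars at the median of all rows of an array. Nearly all lines end highest on the array labelled Nr4a1 knockout, while H1f2 and H2bc4 (red) are lowest there.

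The linker histones divided. H1f1, a variant of dividing lymphoid and germ cells, was at 5.10 in circZbtb20+/+, 3.65 in circZbtb20-/-, 6.34 in Nr4a1+/+ cells and 16 on the array labelled Nr4a1 knockout, the order used from here on. H1f2, a variant also made in resting cells, was at 9.23, 12.70, 10.32 and 5.96. H1f2 was thus highest where H1f1 was lowest, in the circZbtb20 knockout, and lowest where H1f1 was highest. In circZbtb20-/- cells H1f1, at 3.65, lay below the array's median of 4.38, so its circZbtb20 difference is poorly measured. The Nr4a1 difference was 9.66 for H1f1 and -4.36 for H1f2, and the circZbtb20 difference was -1.45 and 3.47. H1f3 was at 5.89, 7.32, 6.63 and 11.12. It was higher by 4.49 on the array labelled Nr4a1 knockout and by 1.43 in circZbtb20-/- cells, but by 0.69, short of a call, against the other wild type. H1f5 was at 4.34, 3.74, 4.98 and 10.10, with an Nr4a1 difference of 5.12.

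The H2A genes, which encode the partner of H2B in the octamer, were all 13 higher on the array labelled Nr4a1 knockout, with a median of 6.74 and differences from 1.08 to 10.28. In this comparison 31.9% of all genes that passed the filter were higher and 20.8% lower. H2ac15 had the greatest difference of all histone genes, at 7.91, 8.42, 9.12 and 19.40 on the 4 arrays. H2ac8 was at 8.21, 7.25, 9.18 and 17.30, a difference of 8.12, and H2ac10 at 9.62, 9.55, 10.76 and 18.59, a difference of 7.83. On these 3 genes the other arrays lay within 2 log2 units of each other. H2ac6, at 7.54, 4.85, 8.47 and 9.55, had the smallest difference, 1.08, just inside the size of a call. H2ac11, H2ac12, H2ac13, H2ac20, H2ac22 and H2ac24 lay close together in this comparison, with differences from 6.20 to 7.29. H2ac1, a testis form, was at 6.22, 6.20, 6.05 and 9.38, and H2ac21 at 4.03, 3.33, 4.42 and 7.17.

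Of the 15 H2B genes 13 were higher and 1 lower in the Nr4a1 comparison (median 4.94), beside 31.9% and 20.8% of all genes. H2bc12 was at 5.89, 4.30, 6.57 and 15.07, a difference of 8.50. H2bc7 was at 9.29, 6.51, 10.80 and 18.34, and H2bc18 at 7.68, 6.50, 8.69 and 16.23, both with a difference of 7.54. H2bc13, H2bc14 and H2bc15 had differences of 6.71, 6.58 and 6.74, and H2bc9, at 7.65, 5.97, 9.62 and 13.99, one of 4.37. H2bc8, at 5.91, 5.32, 8.19 and 11.49, had a difference of 3.30. H2bc4 went the other way, at 11.92, 10.95, 15.44 and 8.60, a difference of -6.84 from its own wild type and of -3.32 from the other wild type. The wild types themselves differed by 3.52 on this gene, the greatest such difference among the histone genes. H2bc1, a testis form, was at 5.04, 4.05, 4.70 and 5.36 and was not called.

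The H2B genes also differed by the span that RefSeq gives them. Of the 53 histone genes 49 span 375 to 911 bases, and the other 4, all H2B genes, span 2667 to 14079 bases. These are H2bc21, H2bc23, H2bc4 and H2bc22, with Nr4a1 differences of 1.51, 2.11, -6.84 and 3.79. The other 11 H2B genes had a median of 6.58, with values from 0.66 to 8.50. The lists were compared after the values were seen, and no test stands behind this.

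Of the 10 H3 genes 9 were higher in the Nr4a1 comparison (median 6.78), beside 31.9% of all genes. H3c13, with its copies H3c14 and H3c15, was at 10.47, 7.88, 11.43 and 18.21. H3c10 was at 8.94, 6.73, 9.90 and 17.46, a difference of 7.56. H3c7, at 7.61, 5.97, 7.99 and 12.82, and H3c3, at 5.22, 3.99, 6.42 and 11.28, had the smaller differences of 4.83 and 4.86. H3c1 was at 4.05, 3.76, 4.23 and 4.79, close to the array medians, and was not called. Mammals have an H3.1 and an H3.2 form that differ in a single residue. The 4 H3.1 genes (H3c1, H3c8, H3c10 and H3c11) had a median of 7.40, and the 6 H3.2 genes a median of 6.78.

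Of the 11 H4 genes, nearly all of which encode the same protein, 10 were higher in the Nr4a1 comparison, beside 31.9% of all genes. The median H4 difference was 4.01 and the H4 differences ran from 0.61 to 4.69, the narrowest range among the types. H4c4 was at 13.09, 15.25, 14.90 and 18.91, and H4c1 at 13.86, 11.01, 14.54 and 19.13. H4c2, at 12.99, 11.45, 13.12 and 17.26, H4c11, at 12.98, 11.07, 13.60 and 16.58, and H4c12, at 12.30, 11.20, 13.24 and 17.39, were each lowest in the circZbtb20 knockout. H4c6 was at 10.13, 8.15, 10.95 and 15.64, and H4c18 at 12.89, 13.74, 13.81 and 17.50. H4c9 was at 6.79, 7.42, 8.38 and 8.99 and was not called. The H4 median level was 12.30, 11.07, 13.12 and 16.58 on the 4 arrays.

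In circZbtb20-/- cells more histone genes were lower than higher, and the counts varied with the type. Among the 53 genes, 22 were lower and 9 higher (median -0.64). Over all 11122 genes that passed the filter, 27.3% were called higher and 19.4% lower (median 0.17, and 0.04 over all 19504 genes). Among the histone genes 49 passed this filter. Against the other wild type 4 were higher and 31 lower (median -1.42). All 22 genes that were lower, but only 4 of the 9 that were higher, were called in the same direction against both wild types. Over all genes these were 1543 of 2157 lower and 2380 of 3035 higher. As 51 of the 53 histone genes stood higher in the Nr4a1 wild type, using it lowers nearly every difference. The same direction of the lower calls is thus no separate support for them. The acinar markers above moved with this comparison, with 11 of 12 lower against its own wild type and 10 against the other. Of 10 epithelial markers 6 were higher and 2 lower (median 1.27), but against the other wild type 0 were higher and 8 lower (median -2.13). The part of these markers in the histone differences was not tested.

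**Figure D2:**
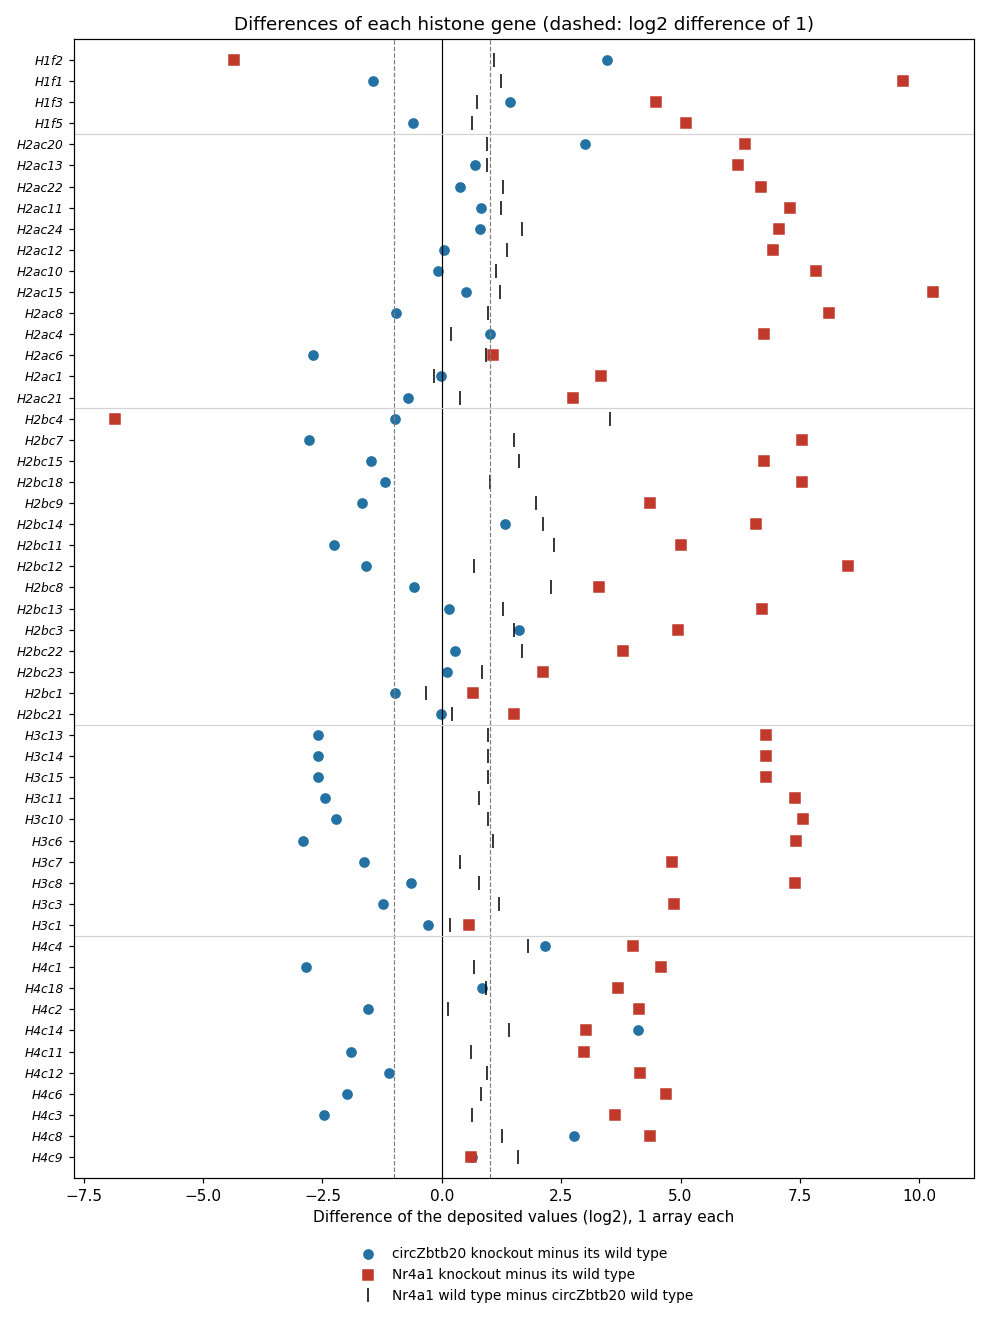
Log2 differences (horizontal axis) of each histone gene (rows, by type) in the circZbtb20 comparison (circles), the Nr4a1 comparison (squares) and between the wild types (ticks), with dashed lines at a difference of 1. Squares lie to the right except those of H1f2 and H2bc4, all 10 H3 circles lie left of 0, and H4 circles lie on both sides.

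The H3 genes all had values below their wild type in the circZbtb20 knockout. Of 10 genes 8 were lower and 0 higher (median -2.33), and 9 were lower against the other wild type. Of all genes that passed the filter, 19.4% were lower and 27.3% higher than the paired wild type. H3c6 was at 8.96, 6.05, 10.04 and 17.46, a circZbtb20 difference of -2.91. H3c13 and its copies, with values given above, had a difference of -2.59. H3c8, at 6.13, 5.49, 6.91 and 14.31, and H3c1 were not called. The 6 H3.2 genes had a median of -2.59 and the 4 H3.1 genes a median of -1.43. Copies may share probe signal, so these genes are not independent measurements.

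Of the 11 H4 genes, which all passed the filter, 6 were lower and 3 higher in the circZbtb20 knockout, with a median of -1.10. The 3 higher genes lie near the 27.3% of all genes called higher, and 19.4% of all were lower. H4c14 was at 11.18, 15.29, 12.59 and 15.61, a difference of 4.11, and reached nearly the value of the array labelled Nr4a1 knockout. H4c8 was at 6.93, 9.70, 8.19 and 12.56, a difference of 2.77. H4c4, with a difference of 2.16 from its own wild type, differed by 0.35 from the other. Among the lower H4 genes, H4c1 differed by -2.85 and H4c3, at 10.50, 8.04, 11.14 and 14.76, by -2.46. The called H4 genes thus went both ways, with the count of higher ones near the share of all genes.

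The H2A genes lay nearer to their wild type, with a circZbtb20 median of 0.39 and 10 of 13 not called. Of the 12 that passed the filter 2 were higher and 1 lower, below the 27.3% and 19.4% of all genes. H2ac20 was higher, at 11.39, 14.38, 12.34 and 18.68, a difference of 2.99. H2ac4, at 8.42, 9.42, 8.61 and 15.35, stood at exactly 1.00, on the threshold. H2ac6 was lower, with a difference of -2.69. Against the other wild type the H2A median was -0.87, so the direction of this type depends on the wild type used.

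Of the H2B genes 6 were lower and 2 higher in the circZbtb20 knockout, with a median of -0.97. These were among 14 that passed the filter, where 19.4% of all genes were lower and 27.3% higher. H2bc7 differed by -2.78, and H2bc11, at 6.61, 4.36, 8.95 and 13.97, by -2.25. H2bc3, at 4.82, 6.44, 6.33 and 11.27, was higher by 1.62 than its own wild type and by 0.11 than the other. H2bc14, at 6.09, 7.41, 8.21 and 14.79, was higher by 1.32 than its own wild type but differed by -0.80 from the other. Just outside the threshold lay H2bc1 at -0.99, H2bc4 at -0.97 and H2ac8 at -0.96.

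Side by side, 22 genes were lower in the circZbtb20 comparison and higher in the Nr4a1 comparison, and 8 were higher in both. As 48 of the 53 were higher in the Nr4a1 comparison, these joint counts follow largely from each comparison alone. Of all genes that passed the filter, 19.4% were lower in the circZbtb20 comparison and 31.9% higher in the Nr4a1 comparison. Joint counts over all genes were not made. H1f2 was the only gene higher in the first and lower in the second. Another 18 genes were higher in the Nr4a1 comparison and not called in the other, H2bc4 was lower and not called in the other, and 3 genes were called in neither. The comparisons have separate wild types, but RMA, named in the submitters' processing notes, usually normalizes arrays together.

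Many H2A and H2B genes lie next to each other, and 9 such pairs, less than 1000 bases apart in RefSeq, were compared. In the circZbtb20 comparison the H2A gene had the higher difference in 7 of 9 pairs, by a median of 0.97. The pair at this median was H2ac1 and H2bc1, the latter close to background. In the pair H2ac11 and H2bc11 the differences were 0.82 and -2.25, while H2bc21, the neighbour of H2ac20, lay below the array medians and did not pass the filter. In the Nr4a1 comparison the H2A gene also had the higher difference in 7 of 9 pairs, by a median of 2.90. The widest gap was in H2ac6 and H2bc4, at 1.08 and -6.84, where the H2B gene was lower by over 6 log2 units and its neighbour was not. As a type the H2A genes had the higher median in both comparisons, so the pair counts are no separate result. Probe effects cannot be told apart from transcript levels here.

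**Figure D3:**
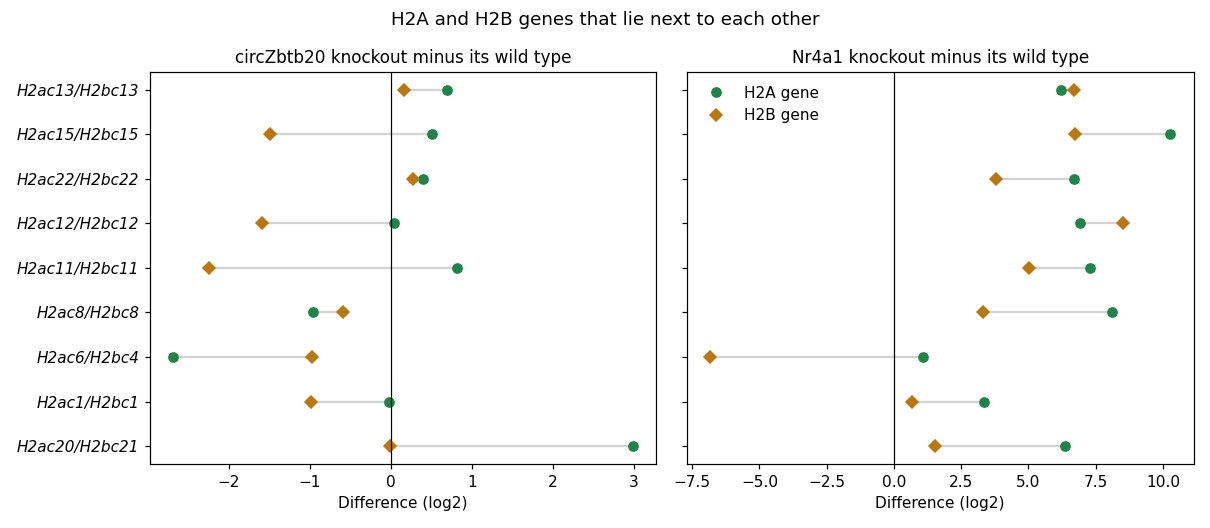
Log2 differences (horizontal axis) of the 9 neighbouring pairs (rows), with the H2A gene as a circle and the H2B gene as a diamond, in the circZbtb20 comparison (left) and the Nr4a1 comparison (right). The pair H2ac6 and H2bc4 stands apart on the right, with H2bc4 at -6.84.

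Between the wild types 25 histone genes were higher in the Nr4a1 wild type and 0 lower (median 0.96). Over all 10698 genes that passed the filter, 8.48% were called higher and 6.77% lower (median 0.05, and 0.03 over all 19504 genes). Values above 0 were found for 51 of 53 genes, the exceptions being H2ac1 at -0.17 and H2bc1 at -0.34, the testis forms. After H2bc4, the greatest differences were those of H2bc11 at 2.34, H2bc8 at 2.28 and H2bc14 at 2.12. H2bc4 was the only histone gene on which the wild types differed by more than 2.34. Markers of other cell types differed between these arrays too. Of 10 epithelial markers 9 were higher in the Nr4a1 wild type and 0 lower (median 2.66), and of 12 acinar markers 11 were lower (median -2.69). Of 19 T cell and thymocyte markers 1 was lower and 6 were higher, among the latter Cd3e by 2.44 and Cd8a by 2.37, and of 11 macrophage and dendritic cell markers 4 were higher. Their part in the histone differences was not tested, and with 1 array for each wild type it cannot be told apart from error.

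The genes that serve histone synthesis were read from lists of their own. Histone pre-mRNA processing and transcription had 23 measured genes, of which 7 were higher and 1 was lower in circZbtb20-/- cells (median 0.40). These 7 of the 22 that passed the filter lie near the 27.3% of all genes called higher. Slbp, which binds the stem-loop, was at 6.58, 9.12, 6.73 and 8.51, higher by 2.54 in this knockout. Ncbp1, of the cap-binding complex, was higher by 3.20, Ccne2, a cyclin of the start of S phase, by 2.32 and Hinfp, a factor of H4 promoters, by 1.78. In the Nr4a1 comparison 15 of the 23 were higher and 0 were lower (median 1.41), beside 31.9% and 20.8% of all genes. Cdk2, the kinase of cyclin E, was at 5.15, 5.23, 5.18 and 10.09, a difference of 4.91. Sympk, of the 3′ cleavage complex, was higher by 3.05, Ccne1 by 2.44 and Srrt by 2.21.

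Histone chaperones carry new histones to DNA. The list held 23 measured genes, and in circZbtb20-/- cells 7 of the 21 that passed the filter were higher and 5 lower (median -0.09), near the shares of all genes, 27.3% and 19.4%. Asf1a, an H3-H4 chaperone, was at 6.28, 10.67, 5.90 and 7.73, a difference of 4.39. Set differed by -4.10 and Hat1, which acetylates new H4, by -2.78, while Ubn1 was higher by 1.80. In the Nr4a1 comparison 16 of 22 that passed were higher and 0 lower (median 1.75), beside 31.9% and 20.8% of all genes. Asf1b, the chaperone form of dividing cells, was higher by 4.32, Hjurp by 3.55, Supt16 by 3.16 and Chaf1b, of the replication-coupled assembly factor, by 3.15.

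Replacement histones, which are made outside S phase as well, had counts and medians of their own, with no test of a difference from the replication-dependent genes. Of 12 genes 11 passed the filter in the circZbtb20 comparison. In circZbtb20-/- cells 6 were higher and 1 was lower (median 1.24), beside 27.3% and 19.4% of all genes. Cenpa, the centromere form of H3, was at 10.43, 14.73, 10.25 and 9.03, a difference of 4.30. H2az2 was higher by 2.94, H2aj by 2.63 and H2az1 by 1.85. In the Nr4a1 comparison 4 of the 11 that passed were higher and 2 lower (median 0.51), near the 31.9% and 20.8% of all genes. H2ax, the H2A form of DNA damage signalling, was at 6.56, 7.53, 7.56 and 13.78, a difference of 6.22. H2az2 was higher by 2.80 and H3f3a by 2.10, while H3f3b, which encodes the same replacement H3, was at 16.57, 18.37, 17.04 and 15.44, a difference of -1.60.

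Genes of the dividing cell stood beside the histone genes on the array labelled Nr4a1 knockout. Of 27 DNA replication genes 26 passed the filter, and 21 were higher and 0 lower (median 2.49). Of 19 mitosis genes 18 passed, and 17 were higher and 0 lower (median 3.86). Of all genes that passed, 31.9% were higher and 20.8% lower. E2f2, a transcription factor of S phase, was at 3.64, 2.85, 4.10 and 12.09, a difference of 7.99. Mki67, the Ki-67 proliferation marker, was at 6.82, 7.15, 6.82 and 13.40. Ccnb2, a mitotic cyclin, was higher by 7.87. In the circZbtb20 knockout 20 of the 27 replication genes passed the filter, and 1 was higher and 6 were lower (median -0.10). Of all genes that passed, 27.3% were higher and 19.4% lower. Pcna, the sliding clamp, was at 13.33, 10.54, 13.60 and 17.31, a difference of -2.79, Prim1, a primase subunit, differed by -2.75 and Rrm2, of deoxynucleotide synthesis, by -2.47. Pola1, of the same polymerase complex as Prim1, was higher by 3.46. Of the 10 mitosis genes that passed 2 were higher and 2 lower (median -0.42), near those shares of all genes.

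**Figure D4:**
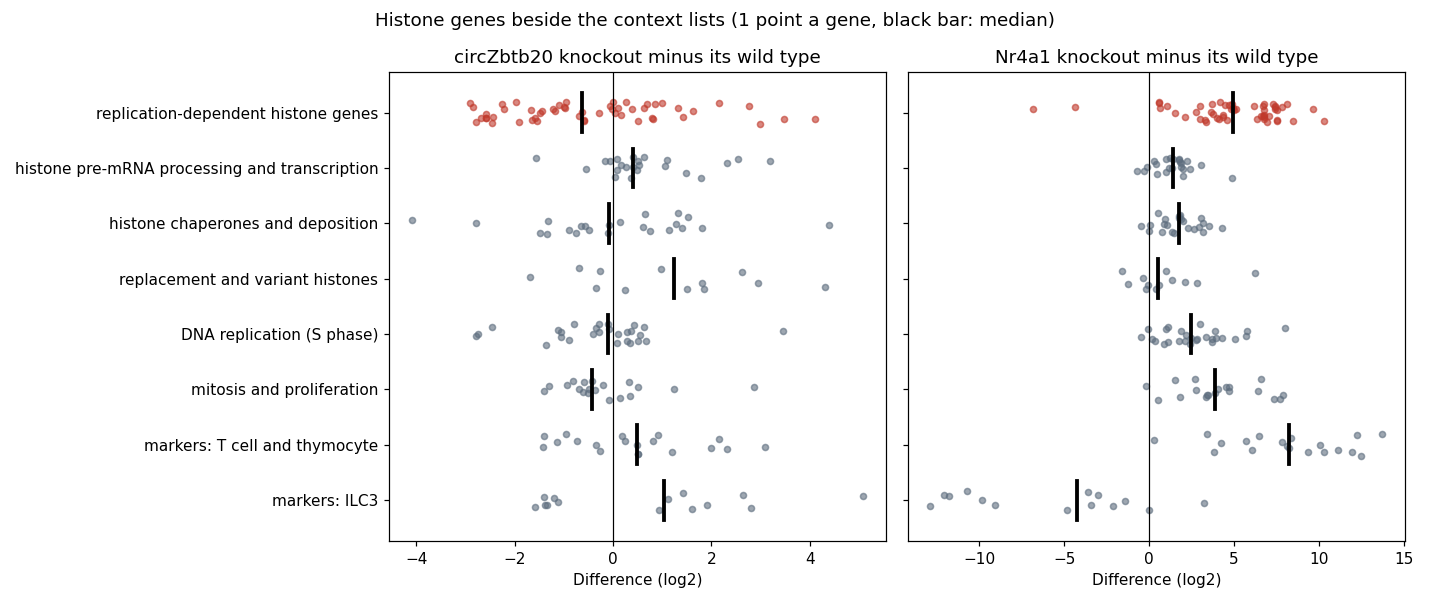
Log2 differences (horizontal axes) of the replication-dependent histone genes (red) and of 7 other lists (grey), 1 point for each gene and a black bar at the median, in the circZbtb20 comparison (left) and the Nr4a1 comparison (right). On the right the histone median of 4.94 lies between the mitosis median of 3.86 and that of the T cell markers, 8.23.

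A fit that took both wild types as 1 group gave the only p-values. Each knockout arm is 1 array, assumed to vary like the wild types, and the p-values carry no error of its own, so they compare these arrays and not the genotypes. By limma with Benjamini-Hochberg adjustment over all genes, 40 of the 53 histone genes passed an adjusted p of 0.05 on the array labelled Nr4a1 knockout, 39 higher and 1 lower, where 11.2% of all 19504 genes passed. In the circZbtb20 comparison 0 passed, as did 0% of all genes. In this fit the circZbtb20 differences of the histone genes ran from -3.535 for H2bc7 to 3.405 for H4c14. The error of the fit is drawn from how far the wild-type arrays stood apart, and from nothing else.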

How the data were processed

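The data are 1 table of 22205 rows for 4 arrays. Total RNA of the sorted cells was extracted with Trizol, per the labels' protocols. Per the submitters' processing notes, the authors made the deposited log2 values with Affymetrix Power Tools and RMA, which usually corrects background, normalizes by quantiles and summarises probes. No version or setting is stated in the sources at hand. The log scale is read from the values. A ceiling of 19.93, reached by 3 to 25 rows of an array, and 95th percentiles from 11.38 to 11.89 are unusual after RMA, so the size of large differences is uncertain. Quantile normalization hides a change of total RNA per cell. Detection calls were not used.

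Rows were named through a platform probe table, in which 19571 rows had 1 symbol and 2634 none, and of several rows of a gene that with the highest mean was kept. All 53 histone genes were found in RefSeq, whose positions served only for neighbours, spans and promoter windows. Nor do these sources state a genome build for the array. The histone genes and lists were chosen with earlier results of these data known.

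Genes named by rule were all H1 genes, the highest and lowest mean of each core type, and up to 4 of each list. The rule also took up to 8 each way in each knockout comparison and 4 between the wild types. Other histone genes, H2bc9, H3c7 and H4c6 among them, were named outside this rule. Of the B cell, macrophage and epithelial lists, 9, 11 and 10 genes were measured. Their medians in the Nr4a1 comparison were -1.00, -1.02 and -3.87, and in the circZbtb20 comparison 0.23, -0.74 and 1.27. Alternatives were the other wild type, other filters and sizes, other normalizations, and limma 3.58.1 (R 4.3.3) with both wild types as 1 group. The limma code was first run on simulated arrays with little noise, which does not test the fit on these arrays. Python 3.11.15, numpy 2.4.6, pandas 2.3.3 and matplotlib 3.10.9 were used.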

Additional observations from a re-analysis of the deposited data

How the results depend on the processing

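No paired analysis was possible because each genotype has 1 array and the labels give no replicate numbers. In the Nr4a1 comparison the counts of higher and lower histone genes stayed within 1.5 times under every alternative run, except that limma called 1 lower gene in place of 2, and the median was 6.34 against the other wild type in place of 4.94. In the circZbtb20 comparison the 9 higher genes became 5 at a size of 2, 4 against the other wild type and 0 by limma. The 22 lower genes became 11 at a size of 2 and 0 by limma, and the median moved from -0.64 to -1.42 against the other wild type. Between the wild types the 25 higher genes became 4 at a size of 2. The change with size follows from the stricter rule, and that against the other wild type from the difference between the wild types. The cause of that difference and of the other changes was not tested. Among single called genes, H2bc14 reversed against the other wild type, to -0.80 in the circZbtb20 comparison. Counting genes of the same values once, another filter, quantile normalization and centring left the other counts within 1.5 times. Centring the arrays on their medians moved the median of all genes to 0.14 in the circZbtb20 comparison, from 0.04, and to 0.17 in the Nr4a1 comparison, from 0. Values near the array medians, as for H3c1, H2bc1, H2bc21 and H2ac21 and for H1f1 on the circZbtb20 arrays, are close to background and poorly measured.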
